A study of Mus musculus with 12 samples.

Results

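Wild-type mouse embryonic stem cells grown by themselves, for 3 days in N2B27 medium, are described here by the level of each gene on their arrays. The members are the 3 arrays labelled WT Separate, replicates 1 to 3, out of 12 arrays in the series. The series set these cells against Bmpr1a-/- cells, which lack a BMP type I receptor and carried a GFP label. Its other groups were Bmpr1a-/- cells grown alone and both genotypes sorted on GFP after sharing a dish, with 3 arrays each. The WT Separate cells carry no engineered allele that the labels name and received no agent beyond the medium. The cell line, its sex and whether the separate cultures also passed through the sorter are not given in the sources used here, nor is it stated whether the 3 replicates came from independent cultures, so the spread between them may be partly technical.

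Embryonic stem cells are taken from the inner cell mass of the blastocyst, and a small circuit of transcription factors around Pou5f1, Sox2 and Nanog holds them undifferentiated. Their naive state, kept by LIF and by inhibitors of FGF signalling and of GSK3, is marked by Zfp42, Klf4, Esrrb and Tbx3. When those factors are withdrawn, cells in N2B27, a serum-free medium, pass through a formative and then a primed state that resembles the epiblast after implantation and is marked by Otx2, Fgf5, Pou3f1 and Dnmt3b. Lineage regulators such as T, Sox17 or Cdx2 come on later, in cells that commit to a germ layer or to extraembryonic tissue.

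RNA was read on a whole-transcript array, in which many short probes along a transcript are summarised to 1 fluorescence signal per probe set. The values below are the authors' normalised signals on a linear scale. For each gene the brightest probe set that carries a single gene symbol was taken, which gave 21009 genes. Signals of different genes also differ by how well their probes bind, so an order of genes is an order of signals and not of molecules. Ranks run from 1, the brightest gene, and a position in the top share of genes is the rank as a percentage of all genes. The 3 arrays were close to each other, with correlations of log2 signals over genes from 0.9921 to 0.9958 and upper quartiles of 180, 180 and 166. The number of arrays limits the precision of every mean.

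Silence was read from genes that these cells have no known use for. The array holds 1224 odorant, vomeronasal and taste receptor genes, and their mean signals had a median of 22.5. The floor was set at the signal that 95% of them did not exceed, 33.0. A gene was counted as above the floor when it exceeded 33.0 on each of the 3 arrays, and 14226 of the 21009 genes did (67.7%). At or below the floor on every array were 5613 genes, and 1170 genes exceeded it on 1 or 2 arrays. At the boundary the counts are arbitrary, as Tnf and Asgr2 had mean signals of 32.96 just above it and P4ha3 and Cyp2c37 had 32.96 just below it.

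**Figure D1:**
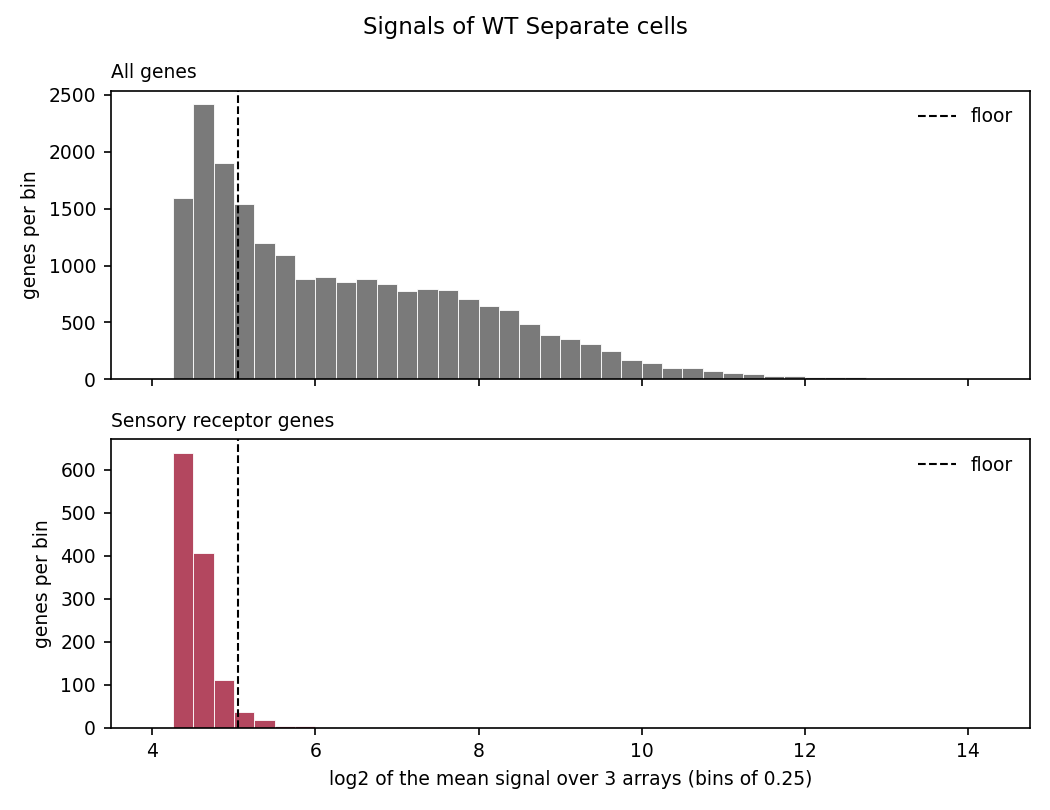
Number of genes by log2 mean signal over the 3 WT Separate arrays, for all 21009 genes in the upper panel and the 1224 sensory receptor genes in the lower panel; the dashed line is the floor of 33.0. The receptor genes pile up at the dim end around their median of 22.5, while all genes reach up to 16994 with a median of 62.3.

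The median gene read 62.3, a gene at the 90th percentile read 432 and one at the 99th percentile read 2094. The 100 brightest genes held 12.7% of the summed signal and the 1000 brightest held 41.7%, while the genes above the floor held 95.7%.

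Bright and silent genes differed in the base composition of their promoters, a property that played no part in choosing them. RefSeq promoters, 250 bases before to 50 bases after each transcription start on GRCm38.p6, were matched by symbol for 15066 of the 21009 genes, taking the first listed start. The measure is the CG ratio, the count of CG dinucleotides over the count that the C and G content would give. Its median was 0.86 in 752 promoters of the 1000 brightest genes and 0.74 in 9768 promoters of the other genes above the floor. It was 0.24 in 2834 promoters of genes at or below the floor on every array, a class from which sensory receptors are left out throughout, and 0.11 in 1027 promoters of sensory receptor genes, against 0.63 over all matched genes. A ratio above 0.6 was found in 88.0% of promoters of the brightest genes and in 14.4% of those at or below the floor. The motif GGGCGG, searched on both strands, was in 70.6% of promoters of the brightest genes, in 19.6% of those at or below the floor and in 50.4% of all matched promoters. The motif TATAAA was in 9.57% of promoters of the brightest genes and in 6.90% of those of the other genes above the floor. Its share was higher, 19.8%, for genes at or below the floor and 40.4% for sensory receptors, against 12.1% of all matched promoters. The last motif, CCAAT, was at similar shares, 42.0%, 37.8%, 37.9% and 40.7% in the same classes and 38.1% of all.

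The promoters of 5 genes show the range, with every CG in capitals. Eef1a1, the translation elongation factor at rank 2, lies at chr9:78481675-78481974 on the minus strand and has 22 CG dinucleotides and a ratio of 0.70. Pou5f1, at chr17:35505782-35506081 on the plus strand, has 11 and a ratio of 0.37, low for a bright gene. Slc2a1, the glucose transporter at rank 43, lies at chr4:119108495-119108794 on the plus strand and has 18 and a ratio of 0.60. Hoxa2, a silent hindbrain regulator at chr6:52164782-52165081 on the minus strand, has 9 and a ratio of 0.59. Alb, serum albumin, silent here, lies at chr5:90460620-90460919 on the plus strand and has 3 and a ratio of 0.27.
Eef1a1: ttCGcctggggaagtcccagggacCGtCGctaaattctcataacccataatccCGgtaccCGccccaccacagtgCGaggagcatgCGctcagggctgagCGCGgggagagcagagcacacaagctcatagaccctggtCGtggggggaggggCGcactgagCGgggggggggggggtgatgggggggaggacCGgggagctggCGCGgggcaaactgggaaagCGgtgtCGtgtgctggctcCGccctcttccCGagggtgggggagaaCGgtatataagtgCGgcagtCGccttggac
Pou5f1: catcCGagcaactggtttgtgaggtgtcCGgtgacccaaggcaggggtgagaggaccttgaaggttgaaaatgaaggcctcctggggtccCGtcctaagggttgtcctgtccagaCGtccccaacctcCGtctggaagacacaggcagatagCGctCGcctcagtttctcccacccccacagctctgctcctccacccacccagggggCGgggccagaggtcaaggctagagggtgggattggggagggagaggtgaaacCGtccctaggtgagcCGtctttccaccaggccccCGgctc
Slc2a1: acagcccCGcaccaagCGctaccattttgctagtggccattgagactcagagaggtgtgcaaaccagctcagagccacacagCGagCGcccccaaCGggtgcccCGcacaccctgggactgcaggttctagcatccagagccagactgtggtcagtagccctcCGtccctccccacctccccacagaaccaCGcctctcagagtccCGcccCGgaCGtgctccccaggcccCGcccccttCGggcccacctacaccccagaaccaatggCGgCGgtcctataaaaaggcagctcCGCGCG
Hoxa2: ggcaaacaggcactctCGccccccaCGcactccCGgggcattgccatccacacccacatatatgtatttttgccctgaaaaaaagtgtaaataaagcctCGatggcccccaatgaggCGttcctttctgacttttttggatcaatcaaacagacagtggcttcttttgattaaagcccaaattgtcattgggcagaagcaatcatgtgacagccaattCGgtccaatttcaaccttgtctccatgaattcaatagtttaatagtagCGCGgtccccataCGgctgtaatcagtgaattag
Alb: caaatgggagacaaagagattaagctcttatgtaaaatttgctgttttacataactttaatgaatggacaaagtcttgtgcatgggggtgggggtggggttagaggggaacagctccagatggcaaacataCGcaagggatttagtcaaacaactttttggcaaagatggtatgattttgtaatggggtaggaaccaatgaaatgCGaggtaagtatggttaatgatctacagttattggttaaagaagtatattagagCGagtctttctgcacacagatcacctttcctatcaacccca
The runs show CG dinucleotides scattered along the promoters of Eef1a1 and Slc2a1 and nearly missing from that of Alb, with Hoxa2 and Pou5f1 between.

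Among the 100 brightest genes 28 had symbols of ribosomal proteins or of translation initiation and elongation factors, and 26 had symbols of predicted genes, unnamed loci or pseudogenes. Those of the forms Gm, Rik and LOC are not named. Rn28s1, the RNA of the large ribosomal subunit, was first on every array with 17220, 17212 and 16550 units, and Eef1a1 followed on every array with 12271, 12390 and 12085. Actg1 and Actb, the cytoplasmic actins, averaged 9223 ± 410 and 8708 ± 296 (SD, n = 3 arrays here and throughout). Rps2, a protein of the small ribosomal subunit, averaged 8510 ± 288, and Rplp1, a ribosomal stalk protein, 6178 ± 96.7. Gapdh of glycolysis read 7721, 7726 and 7736, a spread of 0.102% of its mean. Chaperones and folding enzymes were in the same range, with Hsp90ab1 at 6789 ± 177, Hsp90aa1 at 6484 ± 236, Hspa8 at 6147 ± 160 and the cyclophilin Ppia at 6826 ± 396. Pabpc1, which binds poly(A) tails, averaged 6733 ± 200, and Eif4a1, the helicase of translation initiation, 6136 ± 58.2. Tuba1c and Tubb5, tubulins, averaged 6135 ± 357 and 5390 ± 282, and Npm1, a nucleolar chaperone, 5947 ± 128. Further down the leading group came Rack1 of the ribosome at 5171 ± 72.6, Eef2 at 4883 ± 226, Eif5a at 4693 ± 308, the RNA-binding protein Hnrnpk at 4662 ± 172 and the co-chaperone Ptges3 at 4627 ± 113. The unannotated symbol EG546797 read 6417 ± 377.

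Genes of the mitochondrial genome belonged to the same tier. COX1 and CYTB, subunits of respiratory complexes IV and III, averaged 9036 ± 515 and 8243 ± 302, at ranks 7 and 10. COX2 averaged 5878 ± 361, and ND1, ND5 and ND4L, subunits of complex I, 5858 ± 412, 4838 ± 255 and 4604 ± 355. ND6 and ND3 were dimmer, at 1940 ± 199 and 1725 ± 283. All 8 measured mitochondrial genes were above the floor, against 67.7% of all genes. Of the 8, 7 were highest on replicate 1, where 28.7% of all genes above the floor peaked.

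A few of these places rest on the choice of the brightest probe set. Mycbp2, a ubiquitin ligase, stands at rank 4 with 9636 ± 104, but that probe set lists no RefSeq accession of the gene, and the one that does read 214. The brightest Gapdh probe set with only that symbol also lists none of its accessions, and 27 further probe sets that share the Gapdh symbol with pseudogene loci read from 7503 to 12921. On the probe sets that list their own accession Eif5a read 1083, Ywhaz, a phosphoserine-binding adaptor, 594, and Rpl23 1005, against 4693, 3012 and 4661 on the brightest ones. Of the 21009 genes, 953 had over 1 such probe set, and in 147 of them the brightest exceeded the dimmest by more than 4-fold.

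Most core pluripotency genes were bright. All 14 measured members were above the floor, against 67.7% of all genes, 6 lay in the top 10% and their median signal was 384, against 62.3 over all genes. Pou5f1, the POU factor at the centre of the circuit, read 1964, 1679 and 1698, which placed it at rank 282, in the top 1.34%. Utf1, a chromatin-bound factor of undifferentiated cells, read 2044, 1665 and 1235, so its arrays overlapped those of Pou5f1. Lin28a, which blocks maturation of let-7 microRNAs, read 878, 1101 and 1017, and Sall4, a zinc finger factor that binds the Pou5f1 gene, 849, 921 and 1003. Sox2, the partner of Pou5f1 on DNA, varied more, with 517, 875 and 798, lowest on replicate 1, and stood at rank 1043, in the top 4.96%. Trim71, an RNA-binding repressor, averaged 536 ± 33.7, and Zfp281 414 ± 33.3.

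Members at the dim end of this list were Tdgf1 at 123 ± 68.3, Nr0b1 at 50.4 ± 13.8 and Dppa2 at 47.1 ± 10.8. Tdgf1 encodes Cripto, a co-receptor for Nodal, and Nr0b1 an orphan nuclear receptor that is reduced when naive cells leave their state. Tdgf1 read 201 on replicate 1 against 77.4 and 89.7 on replicates 2 and 3, Nr0b1 64.6, 49.6 and 37.1, and Dppa2 59.5, 41.9 and 39.9. Each was thus highest on replicate 1. Dppa4, the partner of Dppa2 in chromatin, was brighter, at 428, 281 and 252, again with replicate 1 on top. Nanog could not be ranked, because its only probe set also lists Nanogpd, a related locus. That shared probe set read 459, 421 and 329.

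Formative and primed genes were also all above the floor, 23 of 23 measured, against 67.7% of all genes. Their median was 203 and 7 members lay in the top 10%. Pim2, a survival kinase, led with 2046, 2547 and 1822, at rank 201. Dnmt3b, the de novo DNA methyltransferase of the epiblast, was steady at 2002, 1932 and 1982, at rank 235. Those genes overlapped in signal, and both stood clear of Cldn6, a tight junction claudin, at 1213, 1106 and 993. Otx2, the homeodomain factor that drives exit from the naive state, read 1041, 1121 and 857, in the top 3.16%. Fgf5, the classical marker of the primed epiblast, read 334, 388 and 350, in the top 12.5%. Car4, a carbonic anhydrase, averaged 834 ± 78.4, the zinc finger gene Zic2 800 ± 51.1 and Sox4 441 ± 86.7. Pou3f1, also called Oct6, read 192, 225 and 178, in the top 23.5%. The dim end held Tcf15 at 85.1 ± 7.03, Foxd3 at 65.1 ± 3.18 and Nodal, the ligand that maintains the epiblast, at 61.5 ± 4.09.

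Naive-state genes sat lower. Of 21 measured members 18 were above the floor (85.7%, against 67.7% of all genes). Their median was only 68.4, near the 62.3 of all genes, and only Dppa5a was in the top 10%. The 4 markers fixed for the naive state read close to the median gene or below it. Zfp42, also called Rex1, read 123, 52.9 and 67.4, Klf4 63.3, 60.7 and 81.1, Esrrb 72.4, 51.4 and 52.0, and Tbx3 51.1, 52.3 and 46.2. Neighbours in that order overlapped in their range over the arrays, while Tbx3 stayed below the ranges of Zfp42 and Klf4. Tfcp2l1, a factor downstream of LIF, averaged 53.5 ± 6.04, Nr5a2 42.5 ± 2.65, Prdm14 34.5 ± 2.90 and Tcl1 34.1 ± 2.08, and the last pair exceeded the floor on 2 arrays only. Spic, a factor raised in cells kept in inhibitors, read 25.6, 24.0 and 24.9, at or below the floor throughout.

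The bright end of the naive list held an enzyme and signalling genes beside transcription factors. Dppa5a, an RNA-binding protein of early embryos, read 729, 364 and 310, and Tdh, the threonine dehydrogenase on which mouse embryonic stem cells rely, 470, 277 and 282. Both were higher on replicate 1 than on the other arrays. Rbpj, the DNA-binding effector of Notch, averaged 341 ± 19.9 on a probe set with its own accession. The other Rbpj probe set averaged 32.5, below the floor, so its place rests on the choice of probe set. Stat3, which carries the LIF signal, averaged 204 ± 24.9. Klf2 and Klf5 averaged 193 ± 28.9 and 165 ± 17.6, above Klf4 on every array. Fgf4, the ligand by which embryonic stem cells signal to themselves, read 211, 158 and 132.

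The 4 genes given as marks of these cells, Pou5f1, Sox2, Otx2 and Fgf5, were thus all in the top 12.5% of genes on the mean. The naive markers Zfp42, Klf4, Esrrb and Tbx3 ranged from the top 43.7% to the top 55.9%.

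**Figure D2:**
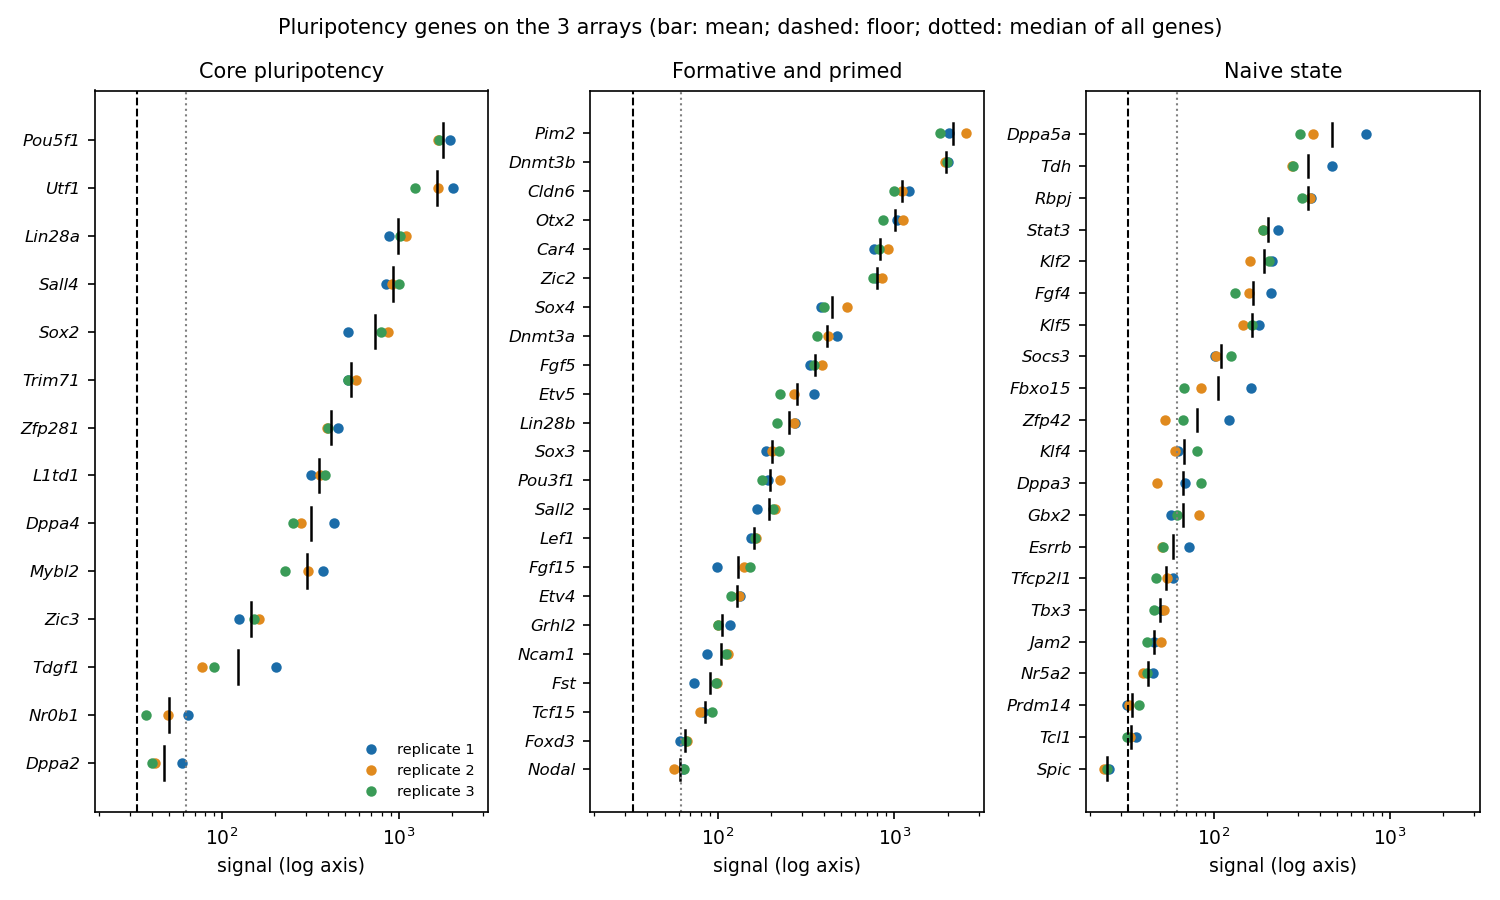
Signals on each of the 3 WT Separate arrays (log axis) for 14 core pluripotency, 23 formative and primed and 21 naive-state genes, ordered by mean; points are arrays, bars are means, the dashed line is the floor of 33.0 and the dotted line the median gene at 62.3. Pou5f1, Utf1, Pim2 and Dnmt3b lie above 1000 on each array, while most naive-state genes lie near the dotted line, and replicate 1 is rightmost for Dppa5a, Tdh, Fbxo15, Zfp42 and Tdgf1.

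Regulators of committed lineages were mostly near the floor. In the mesendoderm list 16 of 20 genes exceeded it (80.0%, against 67.7% of all genes), but the median was 42.0 and none reached the top 25%. T, or brachyury, the factor of early mesoderm, read 38.9, 42.6 and 41.7, Mixl1 41.2, 40.0 and 38.6, and Mesp1, of cardiac mesoderm, 30.4, 29.8 and 32.7. Those values differ little from the floor of 33.0, and Mesp1 did not exceed it. Cdx1 at 101 ± 15.4, Fgf8 at 78.3 ± 10.6, Gsc at 70.0 ± 2.18 and Msgn1 at 62.2 ± 11.6 were the brightest members, and Kdr at 30.7 ± 1.83 and Cdx4 at 24.8 ± 2.20 the dimmest with Mesp1.

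The extraembryonic endoderm list had 11 of 18 genes above the floor (61.1%, against 67.7% of all genes) and a median of 51.2. Gata6, which specifies primitive endoderm, read 33.2, 33.7 and 38.3, and the endoderm factors averaged 34.4 ± 2.09 for Sox7, 27.9 ± 1.89 for Sox17 and 58.8 ± 10.7 for Gata4. The transport proteins Afp and Ttr averaged 31.0 ± 1.40 and 24.9 ± 1.17, both at or below the floor on every array, as was Cubn. Apoe, an apolipoprotein, read 1281, 1098 and 1167, Sparc, a matrix protein, 870, 996 and 981, and Lamb1, a laminin chain, 518, 463 and 570. Dab2, an endocytic adaptor, averaged 117 ± 6.74. These bright members are made by many cell types and do not mark endoderm alone.

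In the trophoblast list Cdx2, Elf5, Hand1 and Gata3, regulators of that lineage, averaged 35.8 ± 3.30, 33.3 ± 3.56, 54.2 ± 5.66 and 45.9 ± 2.02. The keratins of simple epithelia, Krt8 and Krt18, averaged 602 ± 49.5 and 568 ± 83.2, P-cadherin, Cdh3, 286 ± 34.8 and Krt19 234 ± 20.8. Esx1, a placental homeobox gene, averaged 31.6 ± 1.71. Of the 18 members 16 exceeded the floor (88.9%, against 67.7% of all genes), with a median of 52.2.

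In the neural list Tubb3, the neuronal tubulin, read 367, 532 and 471, and Sox11 325, 458 and 353, both lowest on replicate 1. Nes, an intermediate filament of neural progenitors, averaged 183 ± 33.4 and Sox1, the earliest marker of neuroectoderm, 136 ± 18.3. Pax6, which follows Sox1, read 43.6, 56.9 and 48.4, and Olig2 and Six3, regulators of regions of the neural tube, averaged 39.4 ± 4.26 and 39.3 ± 2.19. Dlx1 and Dcx averaged 33.9 ± 3.80 and 32.2 ± 5.24, and Neurog2, the dimmest, read 29.8, 29.5 and 32.3. Over the list 19 of 23 genes exceeded the floor (82.6%, against 67.7% of all genes) and the median was 48.9, below that of all genes.

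Germ cell genes had a median of 38.2, with 10 of 18 above the floor (55.6%, against 67.7% of all genes). The brightest were Tdrd12, a Tudor protein of the piRNA pathway, at 283, 135 and 106, Ddx4 at 101 ± 17.2, Dnd1 at 92.5 ± 7.47 and Sycp3, of the meiotic chromosome axis, at 69.3 ± 22.3. Replicate 1 was highest for 6 of the 10 members above the floor, against 28.7% of all genes above it. Among genes with means from 33.3 to 60.3 that share was 20.6%. Sycp1, Asz1 and Stra8, the switch to meiosis, were silent on every array, the last at 23.2 ± 0.585.

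Hox genes, which give position along the body axis, and genes of adult organs were the lowest lists. Among 36 Hox genes 15 exceeded the floor (41.7%, against 67.7% of all genes), none lay in the top 25% and the median was 32.7. The brightest were Hoxa4 at 63.4 ± 9.18, Hoxb3 at 61.6 ± 6.54, Hoxb1 at 58.3 ± 5.16 and Hoxb7 at 58.3 ± 12.5, and the dimmest Hoxc4 at 24.5 ± 0.852, Hoxc6 at 24.5 ± 1.10 and Hoxa2 at 24.1 ± 0.846. Of 32 genes of adult organs 16 exceeded the floor, with a median of 35.6. Alb of liver read 24.6, 24.9 and 25.8, Gcg of the pancreatic islet averaged 23.8 ± 0.841, Cyp3a11 21.3 ± 1.41 and Adgre1 of macrophages 24.0 ± 1.01. Acta1, skeletal muscle actin, at 155 ± 9.27, and Syp, synaptophysin, at 116 ± 17.5, led, followed by Mbp at 61.5 ± 2.43 and Syt1 at 56.8 ± 3.55. Since 44 of the 1224 sensory receptor genes also exceeded the floor on all 3 arrays, a signal slightly above the floor of 33.0 does not by itself show that a gene was transcribed.

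Promoter composition and silence did not run together in every list. The 19 Hox promoters matched had a median CG ratio of 0.59 and 8 exceeded 0.6, against 52.8% of all matched promoters. Yet the median signal of those 19 genes was 32.4. Among the Hox genes at or below the floor on every array 3 of 7 exceeded 0.6, and among such germ cell genes 3 of 4 did, against 14.4% of genes at or below the floor. In the list of adult organs the median ratio was 0.31, with 2 of 23 promoters above 0.6.

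Fibroblast genes were examined because embryonic stem cells are often kept on fibroblast feeders. Postn and Lum, secreted proteins of fibroblasts, read 22.5 ± 0.490 and 21.0 ± 0.448, and Fap, a surface protease, 21.2, 22.5 and 22.5, all at or below the floor. Col1a1 and Col1a2, the chains of type I collagen, read 124, 115 and 127, and 93.2, 112 and 115, and Thy1, a surface antigen, averaged 229 ± 19.4. Vim, the intermediate filament vimentin that many cultured cells contain, read 909, 1113 and 1051, and Acta2, smooth muscle actin, 139, 212 and 192. Of 17 members 12 exceeded the floor (70.6%, near the 67.7% of all genes), with a median of 53.1. The list's defining members were therefore divided, and the part of other cells in these arrays was not tested. On bulk arrays fewer cells of a type and less RNA in each cell cannot be told apart.

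Genes of the sex chromosomes fell into separate ranges. On the X chromosome Pgk1 averaged 3506 ± 77.6, Ddx3x, an RNA helicase, 2939 ± 163, Eif2s3x 2045 ± 45.6 and Hprt 883 ± 161. On the Y chromosome Ddx3y, Eif2s3y, Kdm5d, Uty and Usp9y averaged from 20.9 to 23.8, and Zfy1 and Zfy2 21.1 ± 0.195 and 21.6 ± 1.10. On every array each of these was at or below the floor. Sry read 56.9, 55.0 and 57.8, above it. Xist, the RNA that coats the inactive X chromosome, read 29.1, 23.4 and 30.4, at or below the floor.

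**Figure D3:**
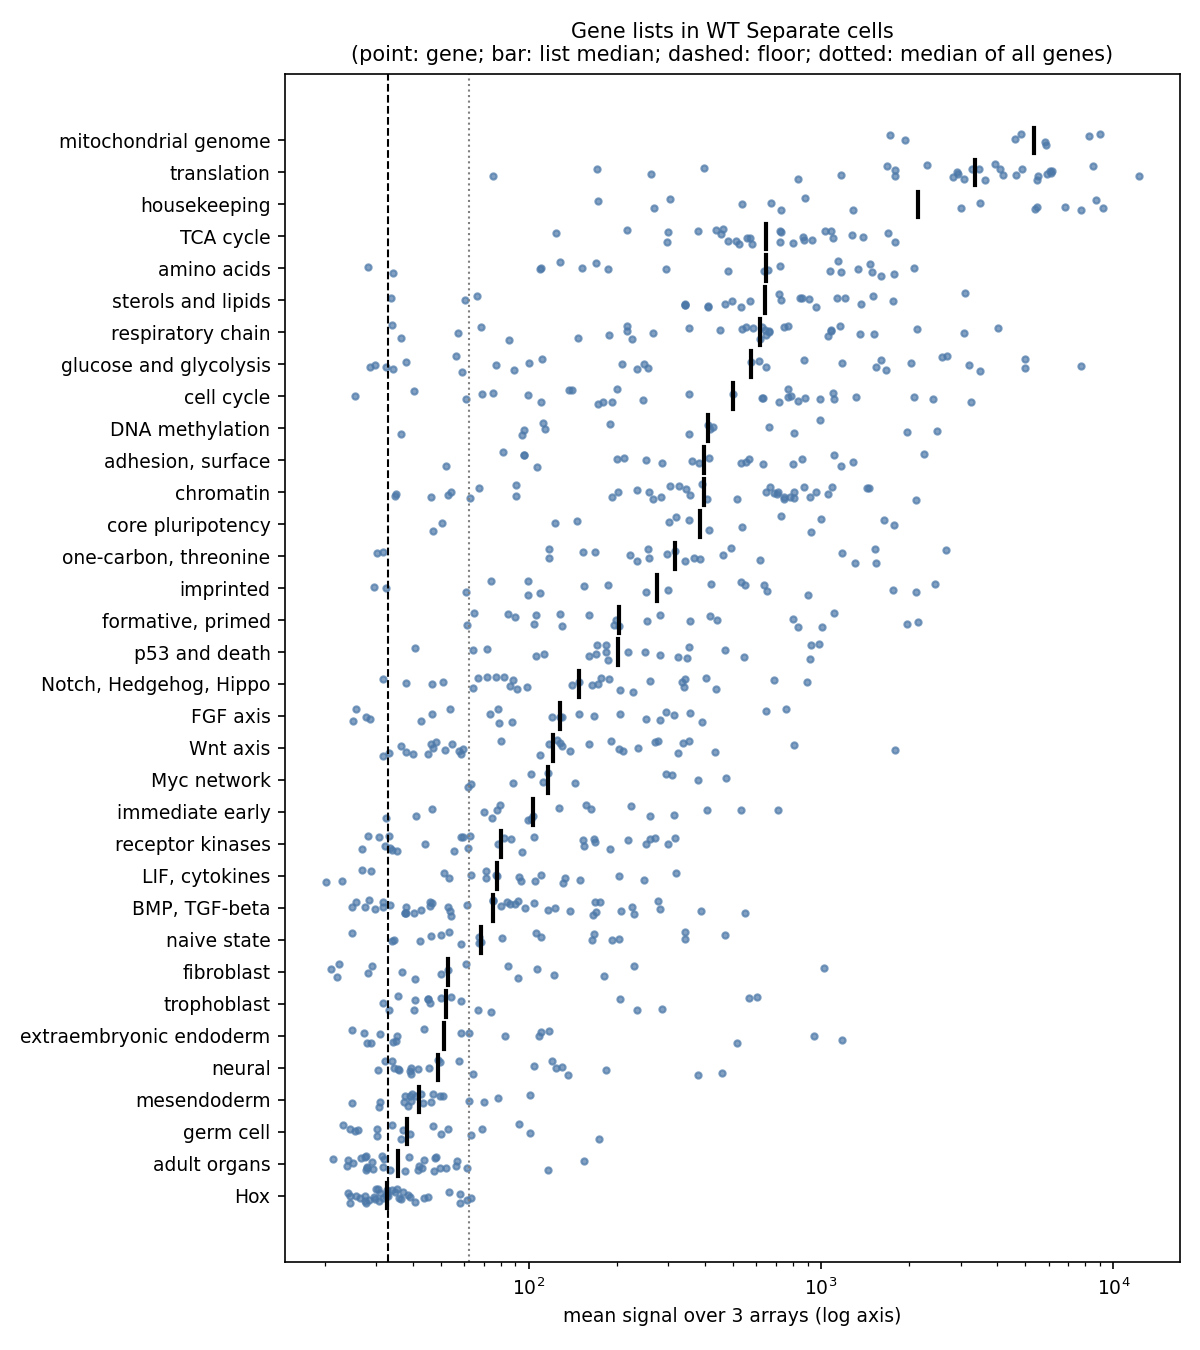
Mean signal over the 3 WT Separate arrays (log axis) of each measured gene in 34 lists, ordered by list median; points are genes, black bars list medians, the dashed line the floor of 33.0 and the dotted line the median gene at 62.3. Lists of the mitochondrial genome and translation lie highest, with medians of 5348 and 3375, and lineage, adult organ and Hox lists lie at the bottom, with medians between 32.7 and 53.1 and single bright members such as Apoe, Vim and Krt8.

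Glucose uptake and glycolysis were among the brightest pathways. Of 31 measured genes 27 exceeded the floor (87.1%, against 67.7% of all genes). In the top 10% lay 16, and the median was 577, about the signal of Aldoc. Slc2a1, the widespread glucose transporter GLUT1, read 4891, 5810 and 4291, in the top 0.205%, and Slc2a3, the high-affinity GLUT3, 2076, 3167 and 2829. The transporters of insulin-responsive and liver tissue, Slc2a4 and Slc2a2, averaged 89.2 ± 4.97 and 32.5 ± 3.33. Among enzymes that trap glucose, Hk2 averaged 615 ± 68.1, Hk1 111 ± 2.05 and Hk3 28.7 ± 1.59, with no overlap between them.

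The later steps followed the same pattern of 1 or 2 bright forms. Phosphofructokinase, the committed step, was covered by Pfkl at 874 ± 96.0, Pfkm at 650 ± 23.9 and Pfkp at 247 ± 28.6. Aldoa averaged 3219 ± 243 and Aldoc 577 ± 127. Pkm, pyruvate kinase of growing tissue, averaged 2597 ± 183 and Pklr, of liver and red cells, 59.3 ± 1.76. Ldha, which makes lactate, read 4945, 5369 and 4655, Ldhb 247, 255 and 202 and Ldhc, of testis, 37.5, 35.2 and 41.4. Lactate exporters were bright too, with Slc16a3 at 1544 ± 174 and Slc16a1 at 1178 ± 80.3. Pgk1, Tpi1, Gpi1 and Pgam1 averaged 3506, 2037, 1669 and 1604. Eno1 could not be ranked, since its 3 probe sets also list other loci, and they read from 4136 to 6156.

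Members of 12 families of related genes, these and others described further on, are drawn side by side in the plot of related genes. Probe binding differs between the members of a family, so these orders hold for signals.

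**Figure D4:**
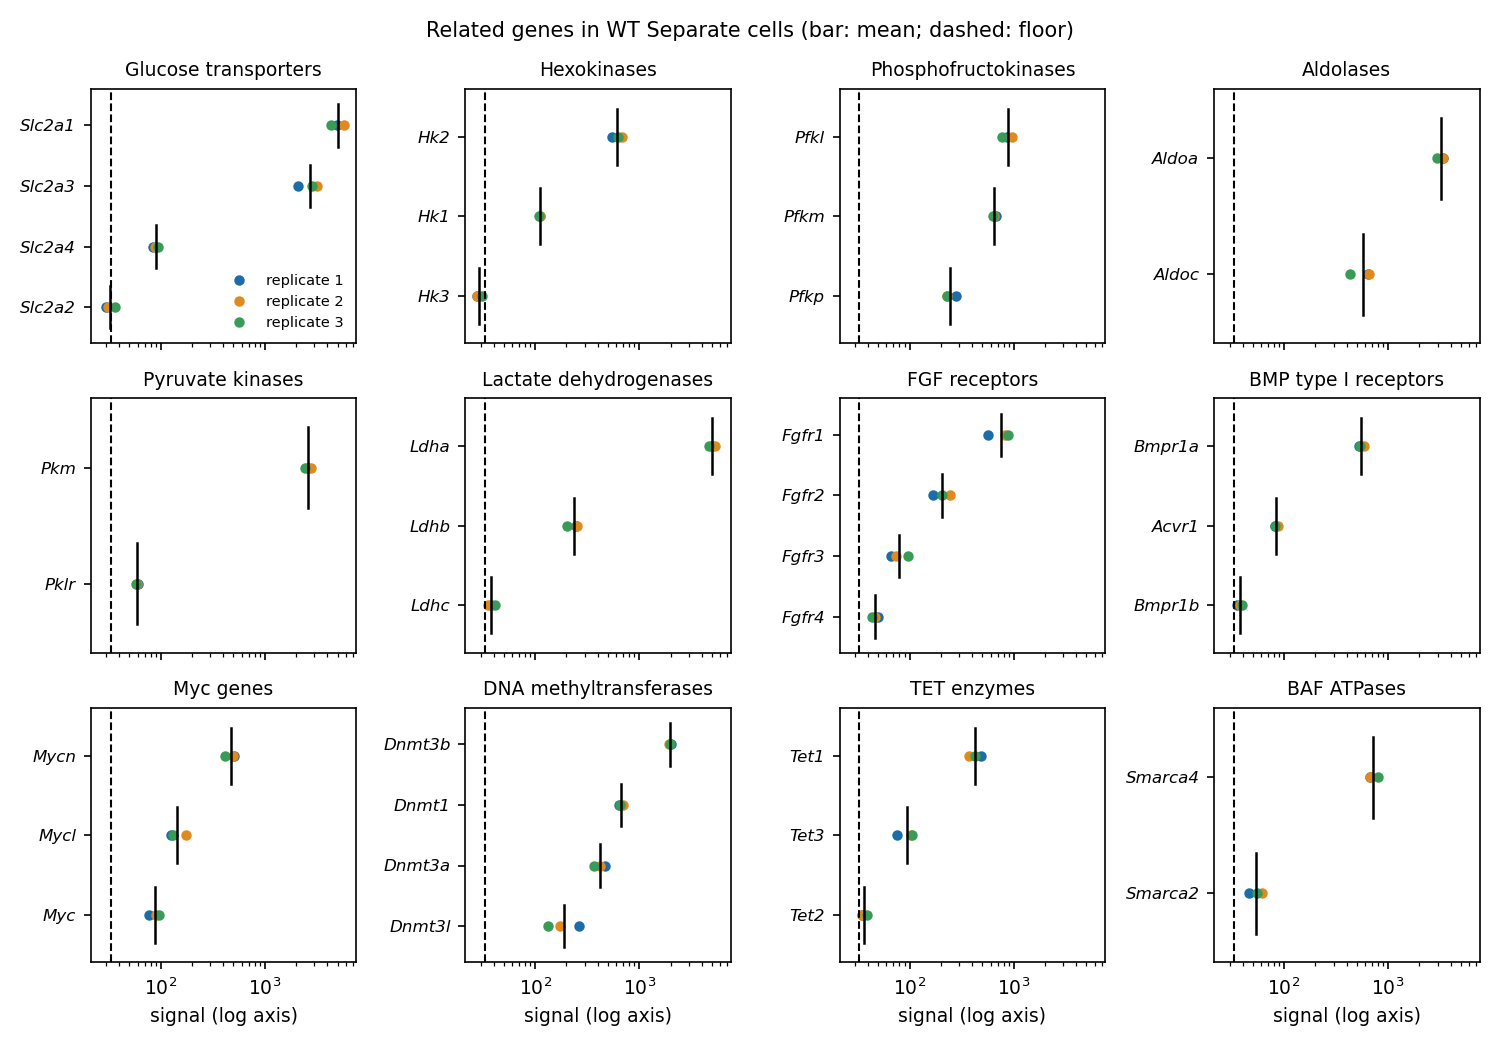
Signals on each of the 3 WT Separate arrays (log axis) for 12 families of related genes; points are arrays, bars are means and the dashed line is the floor of 33.0. Slc2a1, Hk2, Aldoa, Pkm, Ldha, Fgfr1, Bmpr1a, Mycn, Dnmt3b, Tet1 and Smarca4 are the brightest of their families, and Slc2a2, Hk3 and Tet2 lie at or near the floor.

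Mitochondrial metabolism was as bright as glycolysis on the median. All 28 genes of the citric acid cycle and its entry and exit steps exceeded the floor, against 67.7% of all genes. Of these 28 genes 23 lay in the top 10%, and the median of the list was 650. Mdh2, mitochondrial malate dehydrogenase, averaged 1794 ± 85.5, Acly, which turns exported citrate into acetyl-CoA, 1699 ± 89.3, Mdh1 1387 ± 124 and Idh1 1278 ± 51.2. Sucla2, Pdhb and Pcx, pyruvate carboxylase, were the dimmest at 298 ± 10.6, 216 ± 42.7 and 124 ± 9.87. Nuclear genes of the respiratory chain had a median of 616, with 31 of 33 above the floor (93.9%, against 67.7% of all genes). Atp5b and Atp5a1, the catalytic head of ATP synthase, averaged 4046 ± 298 and 3079 ± 166, Atp5c1 2132 ± 161 and Ndufa4 1515 ± 63.2. The muscle or tissue-specific forms Cox6a2 and Cox8b were dim, the first at 57.1 ± 7.55 and the other at 32.0, 32.9 and 36.9. Cycs, cytochrome c, read 36.6 ± 6.52 on its own probe set, against 529 to 654 on 2 probe sets that share its symbol with another locus, so its level is uncertain. Replicate 3 was lowest for 26 of the 31 respiratory and 20 of the 28 cycle genes above the floor, against 47.1% of all genes above it and 60.7% of those with means of 275 or more.

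Amino acid and lipid genes were of similar brightness, with list medians of 649 and 643, while the one-carbon list had a lower median of 316. Slc38a2, a carrier of neutral amino acids, averaged 2075 ± 105, Slc3a2, the heavy chain of the CD98 carriers, 1774 ± 257, Got2 1598 ± 82.0 and Asns, asparagine synthetase, 1489 ± 175. Slc7a11, the cystine carrier, was silent at 28.1 ± 0.290, and Slc1a1 averaged 34.3 ± 3.67. In one-carbon metabolism Ahcy, which clears S-adenosylhomocysteine, averaged 2671 ± 319, Mat2a 1536 ± 182, Mthfd1 1528 ± 57.2, Psat1 1303 ± 266 and Gldc, glycine decarboxylase, 1175 ± 98.2. Mat1a, the liver form of methionine adenosyltransferase, was silent at 30.2 ± 1.26, as was Sds at 31.8 ± 0.903, and Psph averaged 117 ± 17.6. Gcat, which acts after Tdh in threonine breakdown, averaged 153 ± 27.3. Among lipid genes Scd2, a stearoyl-CoA desaturase, averaged 3118 ± 366, Fasn 1765 ± 112 and Fdft1 of sterol synthesis 1507 ± 128. Cpt1a, which takes fatty acids into mitochondria, averaged 60.5 ± 14.4, and Acacb read 72.1, 60.2 and 67.3. In the pentose phosphate pathway Tkt averaged 1469 ± 148, Pgd 906 ± 77.7, G6pdx 740 ± 57.1 and Taldo1 264 ± 5.43. Pgls and the transketolase relative Tktl1 averaged 161 ± 13.4 and 30.2 ± 2.07, and Rpia read 66.7, 66.5 and 101.

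Lists of signalling genes had medians of 75.6 to 148, against 261 to 650 for the metabolic lists, and receptors, effectors and ligands are taken in turn. Fgfr1 read 563, 833 and 885, Fgfr2 167, 244 and 204, Fgfr3 66.9, 74.1 and 96.8, and Fgfr4 49.6, 46.6 and 43.7. The FGF receptors thus kept 1 order on all 3 arrays. Beside Fgf5 and Fgf4 the ligand Fgf15 averaged 130 ± 28.0 and Fgf8 78.3 ± 10.6, while Fgf2 and Fgf10 were silent at 28.5 ± 1.42 and 25.6 ± 0.580. The feedback inhibitors Spred2, Dusp6 and Spry2 averaged 646 ± 55.1, 392 ± 46.6 and 315 ± 13.9. On the probe set that lists its own accession Spred2 averaged 445. Klb and Kl, co-receptors for endocrine FGFs, averaged 27.8 ± 1.77 and 25.1 ± 1.04. Over the axis 21 of 25 genes exceeded the floor (84.0%, against 67.7% of all genes), with a median of 128.

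Bmpr1a, the receptor deleted in the competitor line of the series, was the brightest ranked gene of the BMP and TGF-beta list here, at 525, 588 and 534. Smad4, the partner of all receptor-activated Smads, was not ranked, as its probe set lists another symbol too, and that probe set read 859, 944 and 896. Bmpr1a stood in the top 7.42% of genes. The other BMP type I receptors were far down the ranks, Acvr1 at 84.2 ± 3.40 and Bmpr1b at 37.6 ± 1.86, and the type II receptor Bmpr2 averaged 170 ± 11.8. Gdf3, a TGF-beta family ligand of pluripotent cells, averaged 387 ± 86.1, Tgfbr1 280 ± 48.2 and Smad2, which carries the Nodal signal, 276 ± 12.1. Smad1 and Smad5, which carry the BMP signal, averaged 175 ± 9.77 and 207 ± 12.1. The ligands Bmp4 and Bmp7 averaged 75.5 ± 6.04 and 104 ± 13.8, and Bmp2 was silent at 24.9 ± 1.10, with Bmp15 at 25.6 ± 1.04 and the receptor Acvr1c at 27.4 ± 1.35. Id1, Id2 and Id3, targets that BMP raises, averaged 91.5 ± 16.5, 116 ± 20.5 and 86.3 ± 9.83. Lefty1 and Lefty2, antagonists of Nodal, averaged 42.6 ± 3.28 and 28.4 ± 2.46. Of 44 measured members 36 exceeded the floor (81.8%, against 67.7% of all genes) and the median was 75.6.

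In the Wnt list 32 of 34 genes exceeded the floor (94.1%, against 67.7% of all genes), with a median of 121. Ctnnb1, beta-catenin, led at 1792 ± 120, then the receptor Fzd7 at 808 ± 53.1, Ryk at 434 ± 21.3 and Ror1 at 352 ± 24.0. The ligands were dim, with Wnt3 at 46.9 ± 4.80, Wnt3a at 46.4 ± 1.61, Wnt1 at 33.3 ± 2.58 and Wnt2 at 31.8 ± 1.91, and so was the inhibitor Dkk1 at 36.5 ± 2.93. Axin2, a target that Wnt raises, averaged 109 ± 12.6. For the LIF pathway Jak1 averaged 318 ± 11.6, Il6st, the shared receptor gp130, 150 ± 10.7, the LIF receptor Lifr 92.8 ± 7.15 and Lif itself 63.4 ± 4.94. The interferon receptor gene Ifnar1 averaged 247 ± 16.5, and Csf1r, Il7r and Il6, of blood cells and inflammation, were silent at 26.9 ± 1.16, 22.9 ± 0.518 and 20.2 ± 0.384.

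Of 30 receptor tyrosine kinases and related receptors 22 exceeded the floor (73.3%, near the 67.7% of all genes). Their median was 80.4 and none lay in the top 10%. Ddr1, a collagen receptor, averaged 316 ± 25.8, Insr 300 ± 44.6, Ephb4 270 ± 16.9 and Igf1r 260 ± 9.35. Kit, the receptor for stem cell factor, averaged 218 ± 4.35 and Erbb4 28.2 ± 2.12. In the Notch, Hedgehog and Hippo list Tead2, the DNA-binding partner of Yap1, led at 898 ± 98.6. Tead1 averaged 688 ± 122 on a probe set without its own accession and 234 on the one with it. Yap1 averaged 437 ± 35.4, Smo 403 ± 57.8, Notch1 339 ± 23.4 and Notch2 335 ± 11.4. Notch4, the ligand Dll4 and Dhh, a Hedgehog ligand, closed it at 46.5 ± 6.60, 38.1 ± 3.01 and 31.6 ± 0.654.

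All 22 measured genes of adhesion and the cell surface exceeded the floor, against 67.7% of all genes, with a median of 399. Cdh1, E-cadherin, read 2415, 2098 and 2245, in the top 0.900%, against a shared probe set for Cdh2, N-cadherin, at 177, 280 and 265. Tfrc, the transferrin receptor, averaged 1287 ± 22.9, the integrin Itgb1 1168 ± 66.2, Cldn4 858 ± 120, Tjp1 of tight junctions 799 ± 51.8 and Epcam 568 ± 38.4. Alpl, the alkaline phosphatase used to stain stem cell colonies, read 87.4, 112 and 88.0, and among the dim members Icam1 averaged 81.6 ± 9.43 and Pecam1 52.1 ± 7.74.

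In the DNA methylation list all 15 genes exceeded the floor, against 67.7% of all genes, with a median of 411. Trim28, the co-repressor of retroelements, averaged 2490 ± 153, Dnmt3b 1972 ± 36.1, Tdg 995 ± 41.1 and Uhrf1, which brings Dnmt1 to replicated DNA, 806 ± 61.9. Dnmt1, the maintenance enzyme, averaged 664 ± 24.1, Dnmt3a 418 ± 52.9 and the cofactor Dnmt3l read 264, 172 and 134. Tet1, which oxidises methylcytosine, averaged 426 ± 54.5, Tet3 94.7 ± 17.1 and Tet2 36.4 ± 2.30, with no overlap between them. The 3 probe sets of Tet1, none with an accession of the gene, averaged from 401 to 426.

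Of 40 genes for polycomb, remodelling and other chromatin factors 38 exceeded the floor, with a median of 398 and 19 in the top 10%. Hmgb2 averaged 2117 ± 83.6, the demethylase Kdm5b 1456 ± 66.9, Chd4 of the NuRD complex 1431 ± 87.3 and Jarid2, a partner of polycomb complex 2, 1089 ± 26.0. The core members of that complex, Suz12, Ezh2 and Eed, averaged 962 ± 80.5, 806 ± 42.1 and 283 ± 23.5. The BAF remodelling complex exchanges members between stem cells and other tissues. Smarca4 read 664, 669 and 799 against 46.6, 61.2 and 54.8 for Smarca2, and Actl6a averaged 785 ± 49.7 against 34.9 ± 3.36 for the neuronal Actl6b. Smarcd1 averaged 668 ± 63.9 against 46.3 ± 8.53 for Smarcd3, and Dpf2 690 ± 45.5, against Dpf3 at 31.9, 33.3 and 39.7.

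The cell cycle list had 30 of 31 genes above the floor (96.8%, against 67.7% of all genes) and a median of 499. Cdk4 led at 3251 ± 432, followed by Ccnb1, the mitotic cyclin, at 2520, 2343 and 2403, the replication clamp Pcna at 2081 ± 104 and Mcm2 of the replicative helicase at 1313 ± 45.7. Ccna2 averaged 1109 ± 4.13, Ccne1 790 ± 30.8, Ccnd1 499 ± 42.5, Ccnd2 180 ± 32.9 and Ccnd3 141 ± 21.8. Among inhibitors Cdkn1a averaged 353 ± 26.2, Cdkn2a 68.9 ± 2.81 and Cdkn2c, silent, 25.5 ± 0.750. Rbl2 and Ccna1, the cyclin of germ cells, averaged 60.9 ± 4.63 and 40.5 ± 4.84.

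All 22 genes of the p53 and cell death list exceeded the floor, against 67.7% of all genes, with a median of 202. Trp53 read 889, 1148 and 913, Mcl1, a survival protein, 985, 884 and 894, and Mdm2, which degrades p53, 570, 584 and 478. Bax read 291, 297 and 259, and Bbc3, also called Puma, averaged 170 ± 7.07. Casp8, Bad and the p53 relative Trp63 were the dimmest, at 72.2 ± 9.73, 64.2 ± 2.19 and 40.7 ± 2.07. In the Myc network, known from cell competition in the mouse epiblast, Mycn read 502, 494 and 418, Mycl 125, 176 and 131 and Myc 77.8, 90.7 and 95.5. Mycn was the brightest of the 3 on every array, and its partner Max averaged 294 ± 10.6. Mga and Mlx averaged 379 ± 48.4 and 308 ± 8.84, and the repressor partners Mxd3 and Mxd1 63.5 ± 3.66 and 61.7 ± 6.03.

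Imprinted genes, read from 1 parental copy, had a median of 275 with 18 of 20 above the floor. Meg3, a long noncoding RNA of the Dlk1-Dio3 region, read 2471, 2447 and 2454, while its neighbour Dlk1 averaged 99.1 ± 5.07. Rian, from the same region, averaged 651 ± 92.1. Mest averaged 2120 ± 276, Impact 1769 ± 106 and Peg10 901 ± 156. H19 read 593, 418 and 631, and Igf2, its neighbour, 113, 109 and 104. Neither of the 2 H19 probe sets lists an accession of the gene, and the other one averaged 272. Plagl1, Zim1 and Usp29 were the dimmest, at 60.8 ± 3.84, 32.5 ± 1.15 and 29.6 ± 1.64.

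Genes that protect telomeres and silence repeats were all above the floor, 10 of 10 against 67.7% of all genes, with a median of 332. Cbx3 and Cbx5, heterochromatin proteins, averaged 1818 ± 106 and 917 ± 80.7, Rif1 read 982, 669 and 740, and Terf1, a telomere-binding protein, 938, 773 and 601. Zfp809, which targets retroviral DNA, Tert and Terc, the catalytic subunit and RNA of telomerase, averaged 157 ± 29.1, 110 ± 16.2 and 88.8 ± 12.7. A probe set that the Zscan4c, Zscan4d and Zscan4f genes share, of which bursts occur in a few cells of a culture, read 212, 58.0 and 97.4, again highest on replicate 1. All 13 genes that answer LIF, FGF and Wnt exceeded the floor, against 67.7% of all genes, with a median of 109. Dusp6 was the brightest at 392 ± 46.6, Jun averaged 223 ± 31.7 and Ier2 157 ± 17.5, and Ier3 was the dimmest at 46.7 ± 4.64.

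Most genes varied little between the arrays. Over the 14226 genes above the floor the median coefficient of variation, the SD as a share of the mean, was 8.27%, 90% of genes were at or below 17.0% and 70 genes exceeded 30%. Of genes above the floor, 28.7% were highest on replicate 1, 41.8% on replicate 2 and 29.7% on replicate 3. That share moved with level. Among the 3557 dimmest of these genes, with means from 33.3 to 60.3, replicate 3 was highest for 56.5%, and among the 3556 brightest, from 275 up, replicate 2 was highest for 50.4% and replicate 3 for 17.1%. Replicate 3 also had the higher lower quartile, 28.4 against 27.1 on both others, and the lower upper quartile, 166 against 180. Above the floor, 13 of the 15 Hox genes and 12 of the 16 mesendoderm genes peaked on replicate 3, and the part of that array's narrower scale in these counts was not tested.

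Against this background the naive state was uneven between arrays. Replicate 1 was highest for 12 of the 18 naive-state genes above the floor, against 28.7% of all genes, and for 8 of the 14 core pluripotency genes. Median signals of the naive list were 72.4, 60.7 and 68.5 on replicates 1, 2 and 3. Replicate 2 was lowest for 9 of the 18 naive-state genes, against 20.7% of all genes above the floor. Among genes with means from 33.3 to 60.3 replicate 2 was lowest for 35.8%, and from 60.4 to 123 for 19.3%. Dppa5a, Tdh, Fbxo15 and Zfp42, and Tdgf1 of the core list, were each higher on replicate 1 than on either other array, Fbxo15 at 164 against 85.2 and 68.5. Replicates 2 and 3 were each highest for 3 of the 18 naive-state genes. Klf4, Dppa3 and Socs3 peaked on replicate 3, and Gbx2 and Tbx3 were among those that peaked on replicate 2. Genes of the formative and primed list, with a median of 203, peaked on replicate 1 in 7 of 23 cases and on replicate 2 in 12. Over all genes above the floor these shares were 28.7% and 41.8%. Among genes with means from 123 to 275 they were 32.8% and 51.5%, so the counts lay near the background. Replicate 1 was lowest for 10 of the 23 formative and primed, 11 of 19 neural and 6 of 14 core pluripotency genes above the floor. Over all genes above it the share was 32.4%. This share also moved with level. Replicate 1 was lowest for 43.0% of genes with means from 33.3 to 60.3 and for 24.7% of those from 275 up. The neural list had a median of 48.9, and the part of level in its count was not tested.

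Other variable genes fell into a few patterns. Zfp640 at 121, 40.7 and 34.5, Zfp980 at 222, 86.4 and 69.4, Tdrd12, and a gene listed only by an Ensembl identifier at 157, 70.4 and 53.9 were highest on replicate 1. Usp17ld, a deubiquitinase listed under the older symbol Dub2a, read 46.3, 36.5 and 447, and AY036118 read 189, 329 and 1140. Fosb and Fos, immediate early transcription factors that rise within minutes of a stimulus, read 75.1, 79.0 and 334, and 84.7, 68.9 and 228. These 4 were highest on replicate 3, and Snord15b, a small nucleolar RNA, at 389, 271 and 699, and 1 of 17 probe sets of Myo18b, at 447, 442 and 977, were highest there too. The rest of the immediate early list, gathered after Fos and Fosb had been seen, was divided. Without that pair replicate 3 was highest for 8 of 16 members above the floor, replicate 1 for 7 and replicate 2 for 1. Over all genes above the floor the shares were 29.7%, 28.7% and 41.8% in the same order. The share on replicate 3 was 56.5% among genes with means from 33.3 to 60.3 and 15.7% from 123 to 275. The part of level in these counts was not tested. Dusp1 read 558, 411 and 624 and Egr1 102, 70.6 and 136, both with replicate 3 on top, while Klf6 read 794, 690 and 656, Jund 447, 363 and 412 and Btg2 316, 332 and 296. Egr2 averaged 41.1 ± 1.44 and Fosl1 32.4 ± 2.65.

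**Figure D5:**
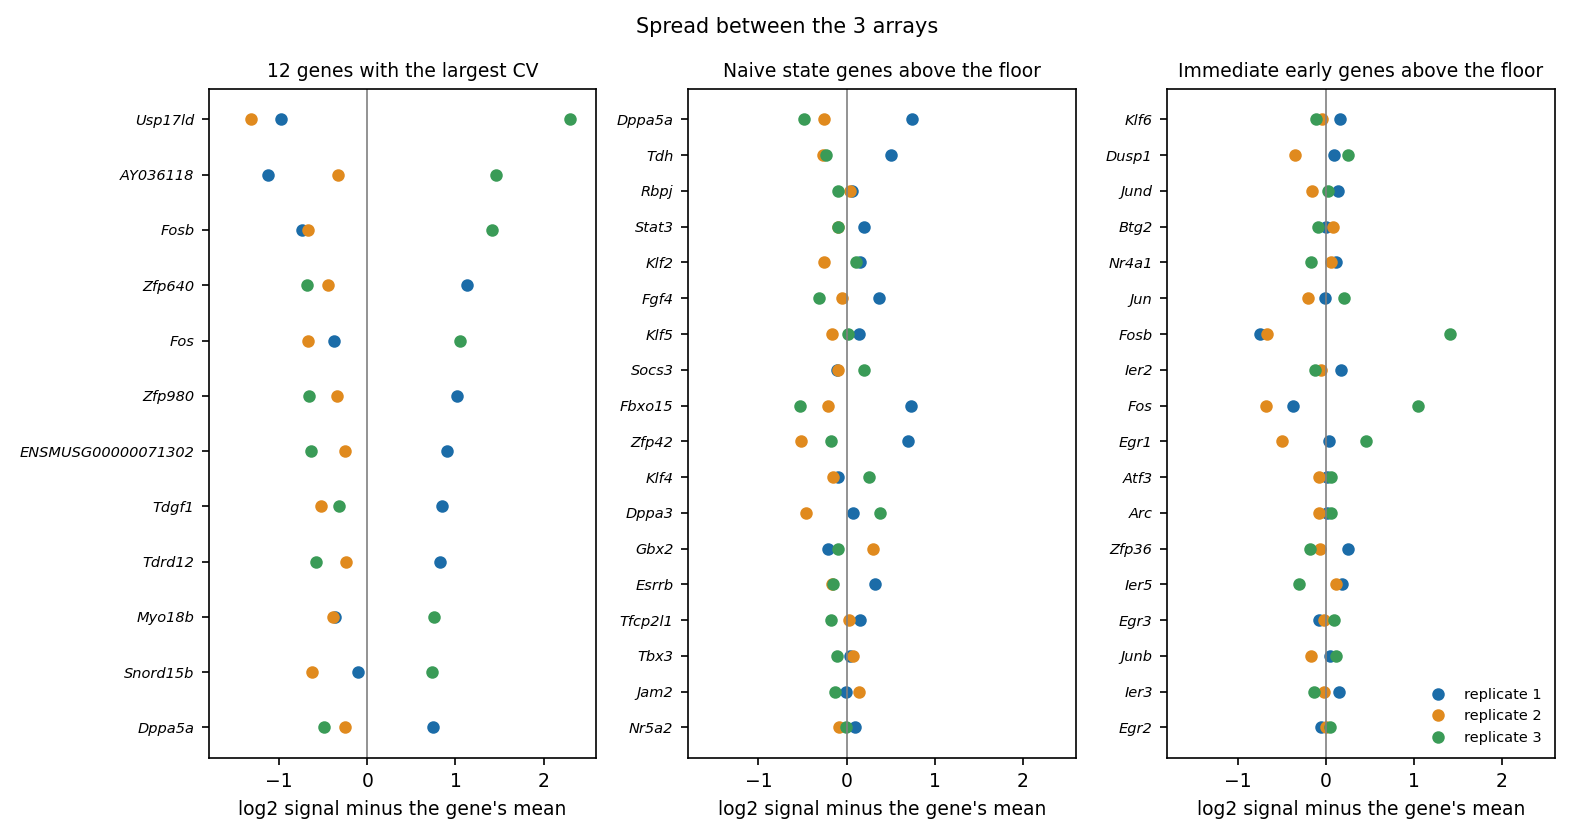
Difference of log2 signal from the gene's mean over the 3 WT Separate arrays, for the 12 genes with the largest coefficient of variation among those above the floor, 18 naive-state genes and 18 immediate early genes; each point is an array. Replicate 1 stands to the right for Zfp640, Tdgf1, Tdrd12, Dppa5a, Fbxo15 and Zfp42, and replicate 3 for Usp17ld, AY036118, Fosb and Fos.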

How the data were processed

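Total RNA of WT Separate cells was labelled and hybridised to Affymetrix mouse gene arrays of 1 colour, per the labels' protocols. The authors summarised probes by RMA in Affymetrix Expression Console 1.2, per the submitters' processing notes, and the file headers name quantile normalisation at the transcript level over the series. They deposited linear intensity values and, in a series table, log2 values of the same arrays centred on each probe set's median over samples. The linear intensity columns of the deposited workbook were used as they stand, and their log2 differed from the deposited log2 table by a constant for each probe set, with a spread of at most 1.9e-06. A further 21 columns of single samples were not used. Genome build and scan batch are not given in the sources used here, and per the file headers the authors left out 1 further array of the series.

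Of 28815 probe sets, 22731 carried 1 gene symbol, 2447 several and 3637 none. Symbols were updated by a RefSeq gene table, which changed 3900, and 1978 were kept as in the file because the table did not hold them. The brightest single-symbol probe set by mean over the 3 arrays stood for each of 21009 genes. Means, SDs and ranks were computed with Python 3.11.15, numpy 2.4.6 and pandas 2.3.3, and tested on simulated arrays. With 1 group there is no comparison and no p-value. Members of 38 gene lists were chosen with earlier results of these data known, and those for immediate early and mitochondrial genes were added after values had been seen. Of 867 listed genes 816 were measured. Named are the 15 brightest genes, the next 15 apart from ribosomal proteins, the 12 with the largest coefficient of variation above the floor, and of each list the 4 highest, the 3 lowest and those whose role is described, leaving out of the first parts symbols of the forms Gm, Rik and LOC. Alternatives varied the probe set, scaling, mean, floor and arrays. Some genes of the lists are not reported here.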

Additional observations from a re-analysis of the deposited data

How the results depend on the processing

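The number of genes above the floor was 14226, and lay between 14018 and 15274 when the probe set was chosen over all 12 arrays, by median or by accession, when probe sets with several symbols were kept, when signals were quantile normalised again or scaled to a common upper quartile, with geometric means, or when the mean alone had to pass. Without each replicate in turn it ranged from 14220 to 14625. The floor itself mattered more. With the 99th percentile of the sensory receptor genes, 45.5, 11779 genes passed, with the 20th percentile of all probe sets, 25.5, 17105, and with the brightest Hox gene, 63.4, chosen after seeing the data, 9909.

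Counts for lists near the floor moved by over 1.5 times with it, since the floor is what they are counted against. At 45.5 the genes above were 11 neural, 5 mesendoderm, 10 trophoblast, 6 germ cell, 4 Hox and 7 of adult organs. At 25.5 they were 17 extraembryonic endoderm, 32 Hox and 28 of adult organs. At 63.4 they were 9 naive-state, 8 neural, 3 mesendoderm, 7 extraembryonic endoderm, 6 trophoblast, 3 germ cell, 7 fibroblast, 0 Hox, 2 adult organ, 23 BMP and TGF-beta and 20 Wnt genes. Counts of the other lists stayed within 1.5 times under every alternative, and named genes in the top 10% numbered 257, with 248 to 258 under the alternatives.

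Levels of named genes moved by over 1.5-fold for 14 of 835 with the median probe set and for 7 with the accession-matched one, among them Mycbp2, Eif5a, Rpl23 and Ywhaz. Without replicate 1, 3 genes moved so, Zfp640, Zfp980 and the Ensembl gene, and without replicate 3, 4 did, AY036118, Fos, Fosb and Usp17ld. No paired analysis was possible because 1 group is described and no test was made. Dim probes limit the data most, since 44 of the 1224 sensory receptor genes exceeded 33.0 on all 3 arrays, and 45.5 is the signal that 99% of them did not exceed.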

Other observations

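Cellular component terms were listed with the array for 14466 genes. By these terms, intracellular machines were nearly all above the floor and surface terms held lower shares. Among 53 terms with 50 or more genes, the nuclear pore had 49 of 50 genes above it with a median signal of 573, the spliceosome 117 of 117 with 510, the mitochondrial respiratory chain 55 of 57 with 429 and the nucleolus 88 of 90 with 357. The lowest were the external side of the plasma membrane, with 42 of 108 and a median of 31.5, proteins integral to the plasma membrane, with 239 of 514 and 32.9, and intermediate filaments, which include keratins, with 51 of 110 and 33.8. Against these, 67.7% of all genes were above the floor, with a median of 62.3. Other surface terms lay near all genes, plasma membrane at 327 of 458 with 61.6 and cell junction at 239 of 318 with 63.1. Nuclear genes stood at 3307 of 3674 with 160, and genes of the extracellular region at 662 of 1291 with 35.8.

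By RefSeq biotype, 12989 of 18414 protein-coding genes were above the floor (70.5%), 195 of 454 long noncoding RNAs (43.0%) and 17 of 17 small nucleolar RNAs, whose median was 166. By chromosome the share above the floor ran from 58.2% of 1071 genes on chromosome 6 to 78.4% of 1105 on chromosome 4 among autosomes, and was 61.5% of 723 on X. Sensory receptor genes, on which the floor was set, were not left out of the counts by component, biotype or chromosome. Of all 1224 such genes 44 exceeded the floor on all 3 arrays, so a group rich in them has a low share by construction. Their part in these shares was not tested.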
